A study of Mus musculus with 6 samples.

Results

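Genes of lymph node homing and adhesion were read in naive CD4 T cells of mice with and without a conditional deletion of Cmtr1. They are 9 of the 46983 genes in the count tables and were taken by name: the chemoattractant receptors Ccr7, S1pr1, Gpr183 and Cxcr4, the integrin subunits Itga6, Itgal and Itgb7, the hyaluronan receptor Cd44, and the transcription factor Klf2. The measurement was RNA-seq of total RNA after ribosomal RNA depletion, from live T cells of the lymph nodes of male mice, sorted as positive for TCR-beta and CD4 and negative for CD44. All mice carried floxed Cmtr1 alleles (Cmtr1 fl/fl). The 2 control libraries came from mice without the CD4cre transgene, and the 4 libraries named Cmtr1 cKO came from mice with it. The age of the mice and the number pooled per library are not given in the labels. CD4cre is driven by Cd4 regulatory sequences and acts from the thymus on, so it recombines in developing T cells as well as in the naive cells that were sorted. CMTR1 methylates the ribose of the first nucleotide next to the mRNA cap.

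Naive T cells enter a lymph node from the blood by rolling along its venules, stopping, and crossing the vessel wall. CCR7 senses the chemokines CCL19 and CCL21 that call the cells in, and integrins such as LFA-1, made of the ITGAL and ITGB2 chains, hold them to the endothelium. S1PR1 senses sphingosine 1-phosphate in blood and lymph and lets the cells leave again, and KLF2 is the transcription factor that drives S1pr1 in quiescent T cells. The measurements below are of RNA, not of receptor on the cell surface.

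All 9 genes were among the 12748 genes abundant enough to be tested. In the libraries labelled Cmtr1 cKO 4 fell and 0 rose. The genes that fell were Gpr183, Itga6, Cd44 and Ccr7. Their mean levels were 63.9%, 67.0%, 70.8% and 77.8% of the control mean. The other 5 members, S1pr1, Cxcr4, Itgal, Itgb7 and Klf2, did not pass the test. A gene was called at a Benjamini-Hochberg adjusted p under 0.05 over all genes tested in edgeR's quasi-likelihood test, and 6.77% of all tested genes were called lower. No member was called higher by edgeR, DESeq2 or limma. At an unadjusted p under 0.05 in edgeR 0 were higher, and 1 was in a fit with a covariate that is described below. Over all tested genes 3933 of 12748 had such a p without the covariate, in either direction. The median log2 fold change of the 9 was -0.36, against -0.00047 over all genes tested, and -0.22 with the covariate. For 8 of the 9, every Cmtr1 cKO library lay below both controls. That was so for 20.8% of all tested genes, and Klf2 was the exception. Leaving out each library in turn, in the order control 1, control 2, then Cmtr1 cKO 1 to 4, the number of members called lower was 2, 0, 3, 3, 3 and 6, at backgrounds of 1.43%, 1.18%, 3.73%, 3.44%, 3.03% and 15.4% of tested genes. Without control 2 the median log2 fold change of the 9 was -0.36, against 0.018 over all genes tested in the same edgeR fit.

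**Figure D1:**
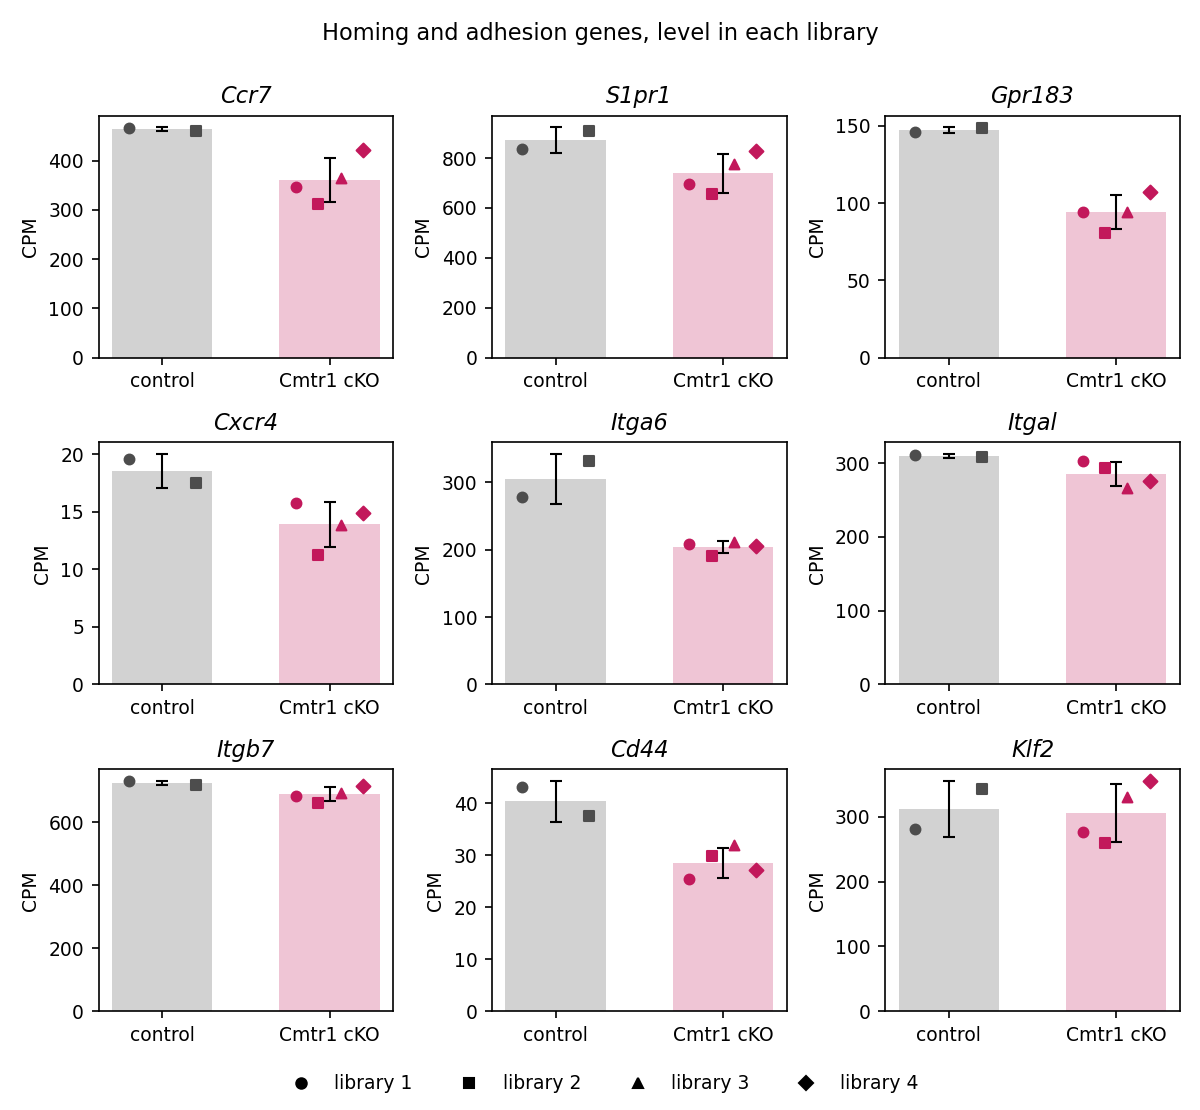
Level of each of the 9 genes in CPM (reads on a gene divided by the size of its library, vertical axis from 0) in 2 control and 4 Cmtr1 cKO libraries. Points are libraries, bars are group means and error bars are SD (n = 2 and n = 4). The groups of Klf2 overlap, and for the other 8 genes every Cmtr1 cKO library lies below both controls.

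The libraries held 9513874 to 11949838 reads on genes. Of the reads that mapped to 1 place, 33.96% in control 2 and 37.23% in control 1 lay outside exons of their own strand (95% Wilson intervals 33.93% to 33.98% and 37.21% to 37.25%). This off-exon share was lowest among the Cmtr1 cKO libraries in library 4, at 38.02% (37.997% to 38.04%), and highest in library 1, at 52.34% (52.32% to 52.36%). Libraries 2 and 3 had 51.59% and 46.67%. The intervals cover counting error only. Reads on the strand opposite to an exon count in this share as well as reads off exons. Opposite-strand reads were most frequent in Cmtr1 cKO 3 (own-strand to opposite-strand ratio 5.57), where Gm42418 and Lars2 took 70.02% of them. The off-exon share moved with genotype, and a second fit held it as a covariate. With that covariate 3 members were called lower, at a background of 2.71% of all tested genes. Cmtr1 itself was not called (log2 fold change 0.36 ± 0.31, SE; edgeR adjusted p = 0.461), with controls at 11.2 and 11.4 CPM and Cmtr1 cKO 1 to 4 at 16.01, 19.8, 14.6 and 7.57 CPM. It had only 88 to 218 reads per library, and opposite-strand reads were 31.9% to 47.3% of all reads over its exons. The deleted exon is not given in the labels, so this count over all exons does not check the genotype, and with the covariate its sign turned (-0.65, edgeR adjusted p = 0.106). Directions below are those of the libraries as labelled.

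RNA of naive CD4 T cell markers was present in every library. The 10 naive CD4 T cell markers, among them Cd3e, Cd4, Lef1, Tcf7 and Il7r, summed to 6188 and 6436 CPM in the controls and to 6326 to 6805 CPM in the Cmtr1 cKO libraries. None of the 10 was called by edgeR. At an unadjusted p under 0.05 in edgeR 2 were higher and 1 lower, beside 3933 of all 12748 tested genes in either direction. DESeq2 called 1 higher, and limma called 2 higher and 1 lower. The 10 B cell markers summed to 385 to 403 CPM in the controls and 294 to 337 CPM in Cmtr1 cKO, of which Ighm alone was 342 ± 3 (SD, n = 2) and 269 ± 9 CPM (SD, n = 4). Of the 10, Ighm and Ighd were called lower. The 11 CD8 T or NK cell markers summed to 78.0 to 92.4 CPM in the controls and 36.0 to 41.6 CPM in Cmtr1 cKO, with Prf1 and Klrd1 called lower. Of that sum Prf1 alone was 41.9 ± 8.1 (SD, n = 2) and 10.9 ± 1.7 CPM (SD, n = 4). The 14 memory or effector markers summed to 290 to 342 CPM against 256 to 333 CPM, with Nkg7 called lower. The 9 regulatory T cell markers summed to 244 to 314 CPM against 250 to 334 CPM, with 0 called by edgeR, DESeq2 or limma. At an unadjusted p under 0.05 in edgeR 0 of the 9 differed, and with the covariate 1 was higher. The 13 myeloid or dendritic markers summed to 27.0 to 48.3 CPM against 26.8 to 30.02 CPM. Of the 13 stromal or endothelial markers Pdpn, Ccl19 and Glycam1 had 0 reads in every library and Pecam1, which T cells also express, made up nearly all of the sum of 309 to 340 CPM. The 9 thymocyte markers summed to 394 to 398 CPM against 511 to 533 CPM, with Themis, Arpp21 and Cdk6 called higher and Rag2 and Ptcra at 0 reads in every library. Most of that sum was Themis, at 311 ± 1 (SD, n = 2) and 378 ± 13 CPM (SD, n = 4), and Cdk6, at 36.07 ± 0.06 and 83.0 ± 5.3 CPM. Arpp21 had only 2 to 27 reads per library, and Dntt was not called (log2 fold change -0.06). With the covariate Nkg7 (-1.26), Ighd (-0.84) and Arpp21 (2.04) were not called by edgeR (adjusted p = 0.239, 0.11 and 0.0829), and 1 of the memory or effector markers and 1 of the naive CD4 T cell markers were called higher. The part of other cells in the members' differences was not tested, and in bulk RNA fewer cells of a type and less RNA per cell cannot be told apart.

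Ccr7 (ENSMUSG00000037944.8, chromosome 11, 99144196 to 99155077, minus strand, GRCm38), the receptor that brings naive T cells into the node, stood at 467 CPM in control 1 and 461 CPM in control 2. Its values for Cmtr1 cKO 1, 2, 3 and 4 were 347, 312, 364 and 421 CPM. All Cmtr1 cKO libraries were below both controls, library 2 lowest and library 4 closest. The log2 fold change was -0.36 ± 0.10 (SE), with edgeR adjusted p = 0.0433, just past the threshold. Without control 1, without control 2 and without Cmtr1 cKO 1, 2 or 3 the fold change was -0.34, -0.36, -0.34, -0.30 and -0.35, none of them called (edgeR adjusted p = 0.214, 0.241, 0.0924, 0.0961 and 0.111), while without Cmtr1 cKO 4 it was -0.44 (edgeR adjusted p = 0.000222). With the off-exon covariate it was -0.096 (edgeR adjusted p = 0.525), and on unstranded counts -0.37 (edgeR adjusted p = 0.0582).

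S1pr1 (ENSMUSG00000045092.8, chromosome 3, 115710433 to 115715072, minus strand), the egress receptor, stood at 835 CPM in control 1 and 909 CPM in control 2. Its values were 698, 656, 774 and 827 CPM across Cmtr1 cKO 1 to 4. Library 4 was the closest to the controls. The order of the 4 Cmtr1 cKO libraries, 2 lowest, then 1, 3 and 4, was the same as for Ccr7. The log2 fold change was -0.24 ± 0.10 (SE) and did not pass the test (edgeR adjusted p = 0.141). It passed without Cmtr1 cKO 4 (-0.30, edgeR adjusted p = 0.0103), and with the covariate the fold change was 0.0048 (edgeR adjusted p = 0.983).

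Gpr183 (ENSMUSG00000051212.7, chromosome 14, 121952551 to 121965195, minus strand), also called EBI2, is the receptor for oxysterols that positions lymphocytes at the edges of T and B cell zones. It had the largest log2 fold change of the 9 as reported, but not with the covariate, on unstranded counts or without control 1. Controls 1 and 2 held 146 and 149 CPM of it, and Cmtr1 cKO 1 to 4 held 94.6, 80.5, 94.6 and 107 CPM, so that even the highest Cmtr1 cKO library was far below the lower control. The log2 fold change was -0.65 ± 0.09 (SE), with edgeR adjusted p = 0.00199. Without control 2 it was -0.62 and not called (edgeR adjusted p = 0.0554), without any other library it stayed called, and with the covariate it was called at -0.42 (edgeR adjusted p = 0.00506).

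Gpr183 lies wholly inside Ubac2, a gene on the opposite strand, and shares no exon bases with it in GENCODE vM21. Reads on the strand opposite to Gpr183 amounted, on the same scale, to 19.9 CPM for control 1 and 16.02 CPM for control 2, and for Cmtr1 cKO 1 to 4 to 51.1, 45.8, 33.9 and 19.6 CPM. Libraries 1 to 3 were above both controls and library 4 was level with control 1. The same 3 libraries had the highest off-exon shares, in which opposite-strand reads also count. Opposite-strand reads were 9.73% to 36.3% of all reads over Gpr183 exons, and at most 2.08% for any other member in any library. On unstranded counts, which add both strands, the log2 fold change of Gpr183 was -0.35 (edgeR adjusted p = 0.0201).

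**Figure D2:**
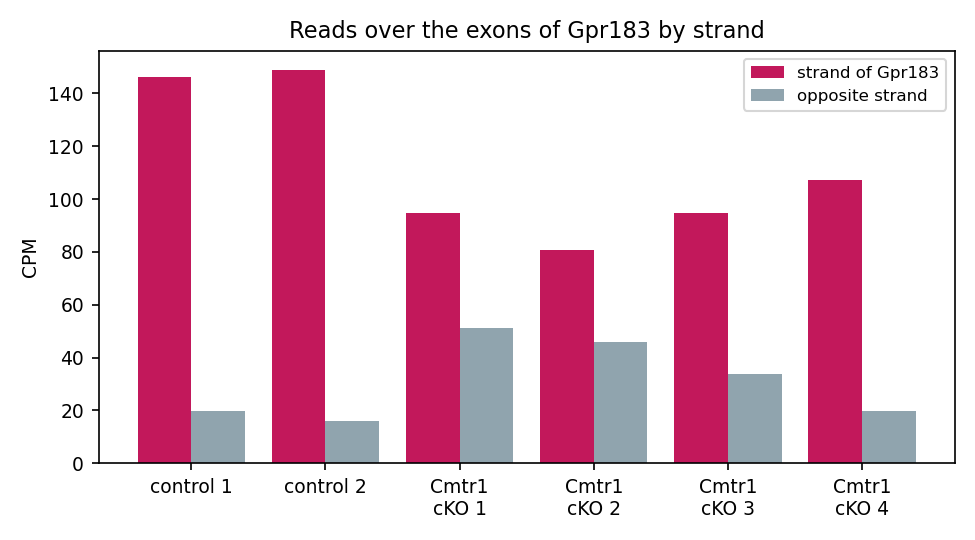
Reads over the exons of Gpr183 in each library, in CPM on the vertical axis, split by strand. Reads on the Gpr183 strand were 80.5 to 107 CPM in Cmtr1 cKO against 146 and 149 in the controls, while reads on the opposite strand were 51.1, 45.8 and 33.9 CPM in Cmtr1 cKO 1 to 3 and 16.02 to 19.9 CPM in the other libraries.

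Cxcr4 (ENSMUSG00000045382.6, chromosome 1, 128588199 to 128592293, minus strand), the receptor for the stromal chemokine CXCL12, was the least abundant of the 9 by reads, with 124 to 224 reads per library. Control 1 had 19.6 CPM and control 2 had 17.5 CPM, against 15.7, 11.2, 13.9 and 14.9 CPM for Cmtr1 cKO 1 to 4. Every Cmtr1 cKO library was below both controls, but the gap between Cmtr1 cKO 1 and control 2 was smaller than the distance between the lowest and highest library of either group. Its log2 fold change of -0.41 ± 0.14 (SE) was larger than that of Ccr7, with a larger error, and was not called (edgeR adjusted p = 0.0827). It was called without Cmtr1 cKO 4 (-0.45, edgeR adjusted p = 0.0267).

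Most other receptors for chemoattractants that were tested were not called. Of 25 on a list around these members 14 were tested, 2 were called higher and 1 lower. The median log2 fold change was -0.13, and it turned to 0.13 with the covariate. Ccr8, a chemokine receptor of activated and regulatory T cells, rose from 3.48 ± 1.76 (SD, n = 2) to 8.20 ± 1.05 CPM (SD, n = 4), or by 1.22 ± 0.27 on the log2 scale (SE; edgeR adjusted p = 0.0162). Gpr34, a receptor for lysophosphatidylserine, rose from 6.22 ± 0.27 to 11.7 ± 2.2 CPM (SD; log2 fold change 0.90, edgeR adjusted p = 0.0168). Cxcr5, the follicle-homing receptor of B cells and follicular helper T cells, fell from 8.70 ± 3.77 to 4.17 ± 0.85 CPM (SD; log2 fold change -1.05, edgeR adjusted p = 0.0305), beside the lower B cell marker sum given above. Among all tested genes 4.66% were called higher. Leaving out Cmtr1 cKO 1 to 4 in turn, 272 of 12645, 228 of 12629, 222 of 12688 and 1940 of 12603 tested genes were called higher. With the covariate neither Ccr8 (1.07, edgeR adjusted p = 0.0642) nor Cxcr5 (-0.70, edgeR adjusted p = 0.341) was called. Without control 2 Ccr8 was at 0.81 and Cxcr5 at -0.52, neither called (edgeR adjusted p = 0.165 and 0.395), and without control 1 they were at 1.88 and -1.43. Leaving out each library in the order given above, 1, 0, 2, 2, 1 and 2 of these receptors were higher and 1, 0, 1, 0, 0 and 2 lower.

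Behind these receptors, chemoattractant signals pass through inhibitory G proteins and are ended by receptor kinases and arrestins. Of 30 such genes 29 were tested, and 4 were called lower and 1 higher, beside 6.77% and 4.66% of all tested genes. Their median log2 fold change was -0.07 (-0.042 with the covariate). Gnai3, an inhibitory G protein alpha subunit, fell by 0.49 on the log2 scale, from 196 ± 2 to 140 ± 14 CPM (SD; edgeR adjusted p = 0.00705). Gna13 (-0.26), the beta subunit gene Gnb1 (-0.28) and Cnih1 (-0.55), of a family of cargo receptors for export from the endoplasmic reticulum, were also called lower. Arrb2, which encodes the arrestin that binds active chemokine receptors, rose from 216 ± 1 to 269 ± 8 CPM (SD; log2 fold change 0.31, edgeR adjusted p = 0.016). With the covariate Gnai3 (-0.25) and Arrb2 (0.26) stayed called and Gna13, Gnb1 and Cnih1 did not (-0.13, -0.12 and -0.25). In the same order of left-out libraries, 0, 0, 1, 1, 1 and 5 were higher and 0, 0, 1, 1, 1 and 8 lower.

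Of the 3 integrin chains among the members Itga6 fell and Itgal and Itgb7 were not called. Itga6 (ENSMUSG00000027111.15, chromosome 2, 71745616 to 71858416, plus strand), an alpha chain of laminin receptors, was at 279 CPM in control 1 and 331 CPM in control 2. Cmtr1 cKO 1 to 4 had 209, 191, 212 and 205 CPM. The Cmtr1 cKO libraries lay close together and below both controls, and the controls lay farther from each other than the Cmtr1 cKO libraries did. The log2 fold change was -0.58 ± 0.08 (SE), with edgeR adjusted p = 0.00165. Without control 1 it was -0.69, and without control 2, the higher of the pair, -0.44 and not called (edgeR adjusted p = 0.062). With the covariate Itga6 was called at -0.51 (edgeR adjusted p = 0.00547).

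Itgal (ENSMUSG00000030830.18, chromosome 7, 127296260 to 127335138, plus strand), the alpha chain of LFA-1, had control values of 312 and 308 CPM, followed by 303, 294, 267 and 276 CPM for Cmtr1 cKO 1 to 4. Its log2 fold change was -0.12 ± 0.07 (SE; edgeR adjusted p = 0.292). Itgb7 (ENSMUSG00000001281.9, chromosome 15, 102215995 to 102231944, minus strand), the beta chain that with ITGA4 binds the mucosal addressin of gut vessels, had control values of 730 and 720 CPM, followed by 685, 663, 694 and 717 CPM for Cmtr1 cKO 1 to 4. Its log2 fold change was -0.07 ± 0.08 (SE; edgeR adjusted p = 0.543). For both genes every Cmtr1 cKO library lay below both controls, by differences close to the spread within the group, and neither passed the test under any of the 14 alternatives.

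**Figure D3:**
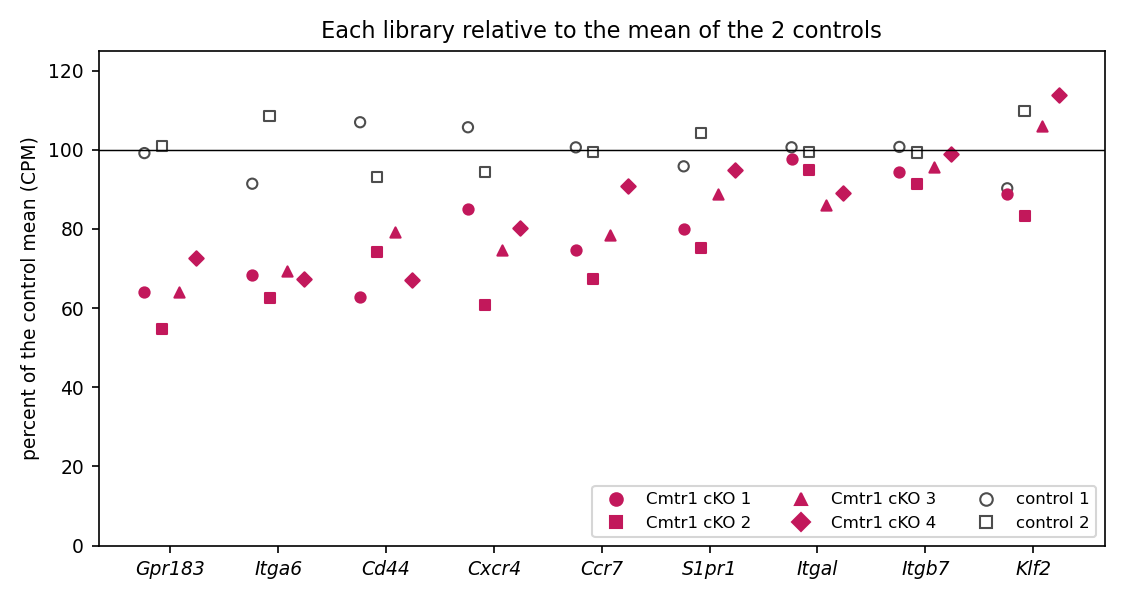
CPM of each library as a percent of the mean of the 2 controls, for the 9 genes ordered by the Cmtr1 cKO mean. Open symbols are controls and filled symbols are Cmtr1 cKO libraries. Gpr183 ranged from 54.6% to 72.7% of the control mean in Cmtr1 cKO and Itgb7 from 91.4% to 98.9%.

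Integrins work as pairs of chains, so each chain was set beside its partner, per length of exon. The ratio of Itga6 to its beta chain partner Itgb1 was 1.91 for control 1 and 2.28 for control 2, and 1.75, 1.46, 1.599 and 1.505 for Cmtr1 cKO 1 to 4. Every Cmtr1 cKO ratio was below both controls. The two-sided exact permutation p was 0.0667, the smallest value that 2 against 4 libraries allow (adjusted p = 0.2 over the 3 pairs). No ratio could therefore fall under 0.05 in this test. The ratio of Itgal to Itgb2 was 0.259 ± 0.003 (SD) in the controls and 0.273 ± 0.012 (SD) in Cmtr1 cKO (exact permutation p = 0.133, adjusted p = 0.2), and that of Itga4 to Itgb7 was 0.138 ± 0.024 and 0.137 ± 0.009 (SD; exact permutation p = 0.933, adjusted p = 0.933). The partner genes themselves were not called. The log2 fold change of Itgb2 was -0.20 ± 0.07 (SE; edgeR adjusted p = 0.085), with all Cmtr1 cKO libraries (471 to 492 CPM) below both controls (555 and 557 CPM). Itgb1 had -0.17 ± 0.08 (SE; edgeR adjusted p = 0.176) and Itga4 -0.09 ± 0.10 (SE; edgeR adjusted p = 0.59), and Itga4 turned to 0.10 without control 2.

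Of 27 other integrin and adhesion genes 20 were tested, and 1 was called higher and 1 lower, beside 4.66% and 6.77% of all tested genes. Their median log2 fold change was 0.03 (-0.0033 with the covariate). Itgb3, the beta chain of the vitronectin receptor, rose from 202 ± 16 to 256 ± 9 CPM (SD; log2 fold change 0.35, edgeR adjusted p = 0.0158). Icam1, the ligand of LFA-1, fell from 31.1 ± 5.2 to 20.3 ± 2.1 CPM (SD; log2 fold change -0.62, edgeR adjusted p = 0.0127), and with the covariate it was not called (-0.54, edgeR adjusted p = 0.0725). Over the left-out libraries in order, 0, 0, 1, 1, 1 and 2 of these genes were higher and 0, 1, 1, 1, 1 and 4 lower.

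Of the machinery that switches integrins on and drives crawling, most genes were not called. All 40 genes on that list were tested, 2 were called higher and 3 lower, shares near those of 4.66% and 6.77% over all tested genes. The median log2 fold change was 0.01 (-0.0027 with the covariate). Rasgrp2, the exchange factor that activates RAP1 and through it integrins, rose from 269 ± 5 to 420 ± 70 CPM (SD; log2 fold change 0.64, edgeR adjusted p = 0.0158). Its values in Cmtr1 cKO 1 to 4 were 478, 473, 400 and 329 CPM, and with the covariate it was not called (0.21, edgeR adjusted p = 0.107). Arhgef1, an exchange factor for RHOA, rose by 0.41 on the log2 scale (edgeR adjusted p = 0.0278). Pxn (paxillin, -0.39), Cyth3 (cytohesin 3, -0.40) and Rac2, the haematopoietic RAC GTPase (-0.34), were called lower by edgeR (adjusted p = 0.0112, 0.0355 and 0.0408). Without control 2 Cyth3 was at -0.20 (edgeR adjusted p = 0.414). Of these 5 Pxn alone stayed called with the covariate (-0.34). Leaving out Cmtr1 cKO 1 to 4 in turn, 1, 1, 1 and 10 of the 40 were higher and 2, 1, 1 and 11 lower. The 10 and 11 came from the fit without Cmtr1 cKO 4, where 1940 of 12603 tested genes were called in each direction. DESeq2 called 7 of the 40 higher and 4 lower, and over 11758 genes 705 higher and 756 lower.

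Cd44 (ENSMUSG00000005087.17, chromosome 2, 102811141 to 102901665, minus strand) encodes the hyaluronan receptor that marks memory and activated T cells, and absence of its protein was part of the sort. Its RNA was low, with 274 to 494 reads per library, at 43.2 CPM in control 1 and 37.6 CPM in control 2, against 25.4, 29.9, 31.95 and 27.1 CPM for Cmtr1 cKO 1 to 4. The groups did not overlap. The log2 fold change was -0.50 ± 0.11 (SE), with edgeR adjusted p = 0.016. Without control 1 and without control 2 it was -0.39 and -0.58, neither called (edgeR adjusted p = 0.18 and 0.0798), and with the covariate it was called at -0.55 (edgeR adjusted p = 0.0298). The sums of memory, B cell and CD8 T or NK cell markers given above stand beside it, and their part in it was not tested.

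Genes that work with CD44 or build selectin ligands were called lower or not at all. Of 27 on the list 21 were tested, and 5 were lower and 0 higher by edgeR. Of all tested genes 6.77% were called lower and 4.66% higher. The median log2 fold change of the list was -0.19 (-0.11 with the covariate). On the list 0 were higher at an unadjusted p under 0.05 in edgeR or by DESeq2 or limma. Ezr and Msn, which encode ezrin and moesin that tie CD44 to actin, fell by 0.37 and 0.39 on the log2 scale. Msn went from 1045 ± 22 to 796.5 ± 101.0 CPM (SD; edgeR adjusted p = 0.045) and Ezr from 453 ± 36 to 351 ± 24 CPM (SD; edgeR adjusted p = 0.0198). Cd74, the invariant chain and a partner of CD44 that is abundant in B cells and dendritic cells, fell by 0.74 on the log2 scale, from 46.8 ± 5.6 to 27.9 ± 6.6 CPM (SD). B4galt1, a galactosyltransferase, and Adam10, a protease that cuts CD44, had -0.27 and -0.30 (edgeR adjusted p = 0.0409 and 0.0425). With the covariate none of the 5 was called (-0.19, -0.10, -1.08, -0.11 and -0.12 for Ezr, Msn, Cd74, B4galt1 and Adam10). Without control 2 Adam10 was at -0.17 (edgeR adjusted p = 0.416). For the left-out libraries in order, 0, 0, 1, 1, 0 and 10 genes here were lower.

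Klf2 (ENSMUSG00000055148.7, chromosome 8, 72319033 to 72321656, plus strand) had 282 CPM in control 1 and 343 CPM in control 2, and its values for Cmtr1 cKO 1 to 4 were 277, 260, 331 and 356 CPM. The groups overlapped, with Cmtr1 cKO 4 the highest library and Cmtr1 cKO 2 the lowest of all 6. Its log2 fold change was -0.03 ± 0.13 (SE; edgeR adjusted p = 0.896), and its sign followed the setting, from -0.15 without control 1 to 0.13 without control 2 and 0.33 with the covariate (edgeR adjusted p = 0.606, 0.697 and 0.0593).

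Around Klf2, some regulators of quiescence and egress were called lower. Of 29 genes on that list 26 were tested, and 5 were called lower and 0 higher by edgeR. The shares over all tested genes were 6.77% lower and 4.66% higher. The median log2 fold change of the list was -0.16 (-0.044 with the covariate, under which 2 were called lower and 1 higher). At an unadjusted p under 0.05 1 was higher, DESeq2 called 0 higher and limma 1. Foxo1, the factor upstream of Klf2, Ccr7 and Il7r, decreased by 0.35 ± 0.07 on the log2 scale (SE; edgeR adjusted p = 0.0105), from 318 ± 12 to 249 ± 8 CPM (SD), and with the covariate it was called at -0.31. Klf6 had -0.43 and stayed called with the covariate (-0.40). Klf13 (-0.35), Txnip, an inhibitor of glucose uptake (-0.39), and Sgpl1, the lyase that breaks down sphingosine 1-phosphate (-0.33), were called lower and not so with the covariate (-0.17, -0.21 and -0.22). By left-out library in the same order, 0, 0, 3, 3, 1 and 9 were lower and 0, 0, 0, 0, 0 and 1 higher.

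**Figure D4:**
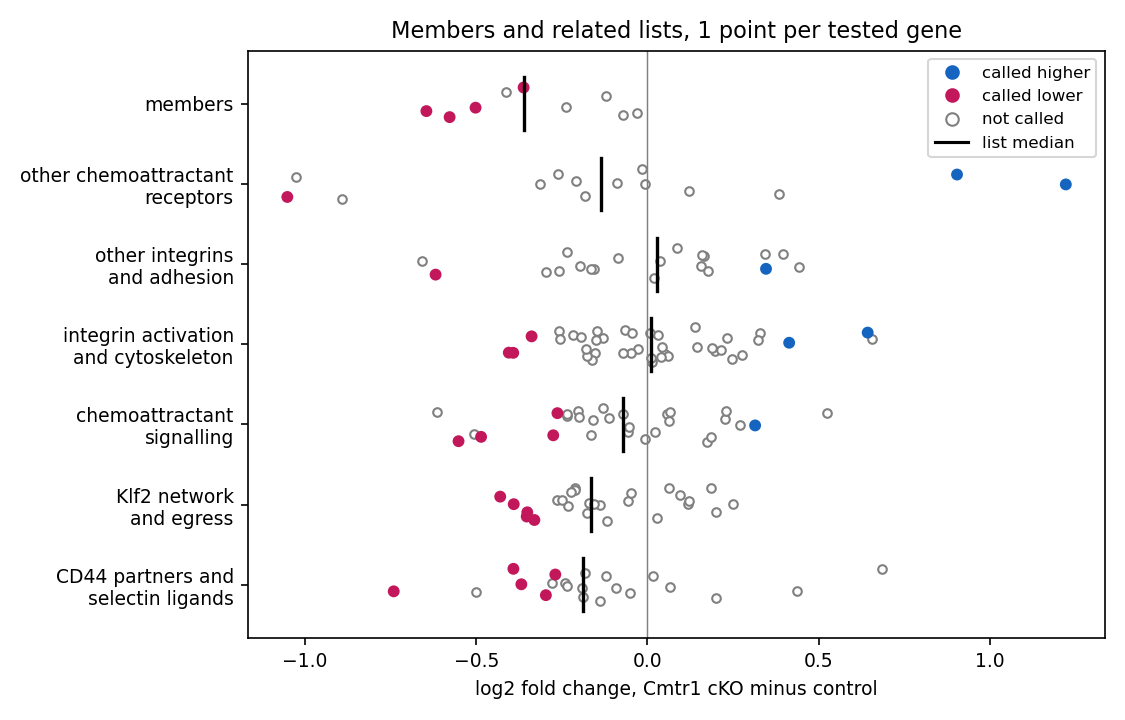
Log2 fold change (horizontal axis, Cmtr1 cKO minus control) of each tested gene among the 9 members and in 6 related lists. Filled points were called by edgeR and black lines are list medians, at -0.36 for the members and between -0.19 and 0.03 for the related lists.

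The promoters of 5 of the 9 genes were in the RefSeq table used here (GRCm38.p6): Gpr183 and Cd44, which fell, and Cxcr4, Itgb7 and Klf2, which were not called. They are shown so that the starts of called and uncalled members can be read side by side. Each window is printed 5′ to 3′ on the gene's strand, from 70 bases before the annotated start to 30 bases after it. Capitals mark CACCC (the core bound by factors of the KLF family), TATAA, or their reverse complements GGGTG and TTATA, and GTAAACA, the core bound by FOXO factors, was also searched on both strands.
Gpr183 (chr14:121965164-121965263, minus strand): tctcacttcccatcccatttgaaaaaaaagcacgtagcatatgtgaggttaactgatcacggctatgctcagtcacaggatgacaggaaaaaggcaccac
Cd44 (chr2:102901636-102901735, minus strand): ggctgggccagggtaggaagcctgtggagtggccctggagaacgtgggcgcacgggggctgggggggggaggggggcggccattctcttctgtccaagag
Cxcr4 (chr1:128592270-128592369, minus strand): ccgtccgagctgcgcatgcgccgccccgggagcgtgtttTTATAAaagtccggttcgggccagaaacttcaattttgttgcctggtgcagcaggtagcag
Itgb7 (chr15:102231906-102232005, minus strand): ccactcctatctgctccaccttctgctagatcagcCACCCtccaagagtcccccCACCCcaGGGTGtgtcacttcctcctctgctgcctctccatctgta
Klf2 (chr8:72318992-72319091, plus strand): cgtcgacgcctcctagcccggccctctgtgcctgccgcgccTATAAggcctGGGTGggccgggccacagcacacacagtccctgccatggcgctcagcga
CACCC or its complement was found in the windows of Itgb7 and Klf2 and in 26.0% of all 32851 promoter windows of this length in the table. TATAA or its complement was found in those of Cxcr4, where both overlap, and Klf2, and in 9.75% of all windows. GTAAACA or its complement was in none of the 5 and in 1.11% of all windows. The windows of Gpr183 and Cd44 held none of these letters, and they differ in base composition, with 45.0% and 71.0% G or C.

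Levels of different genes were compared per kilobase of exon. In the controls the order was S1pr1 at 286 ± 17 CPM per kb (SD, n = 2), Itgb7 at 262 ± 3, Ccr7 at 235 ± 2, Klf2 at 169 ± 23, Gpr183 at 51.1 ± 0.6, Itgal at 47.1 ± 0.4, Itga6 at 33.8 ± 4.1, Cxcr4 at 10.2 ± 0.8 and Cd44 at 5.96 ± 0.59. No neighbours in that order overlapped between the 2 controls. In Cmtr1 cKO Itgb7 (249 ± 8 CPM per kb, SD, n = 4) came before S1pr1 (243 ± 25), and the libraries of these genes overlapped, as did those of Ccr7 (183 ± 23) and Klf2 (166 ± 24). Itgal (43.4 ± 2.5) came before Gpr183 (32.6 ± 3.8) there, with no overlap, so these neighbours stood in opposite order in the 2 groups.

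The 4 Cmtr1 cKO libraries did not depart from the controls by the same amount. Over the 9 genes the median level was 80.1%, 74.1%, 79.1% and 89.1% of the control mean in Cmtr1 cKO 1 to 4. Cmtr1 cKO 2 was the farthest from the control mean for 7 of the 9 and Cmtr1 cKO 4 the nearest for 4, Ccr7, S1pr1, Gpr183 and Itgb7. For Itga6 the 4 libraries lay within 62.7% to 69.5% of the control mean. For Ccr7 they ran from 67.3% to 90.7%.

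For each called member, the gene with the closest profile over the 6 libraries was looked up among 8474 others with a mean of at least 10 CPM, by the root mean square difference of centred log2 CPM. Tmed9 was closest to Ccr7 (difference 0.0254), Prdx1 to Gpr183 (0.0413), Ticam1 to Itga6 (0.055) and Cd72, a B cell co-receptor gene, to Cd44 (0.0823). Cd72 had control values of 22.3 and 18.3 CPM and Cmtr1 cKO values of 13.9 to 15.02 CPM. Over 6 libraries such a match is a description only.

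**Figure D5:**
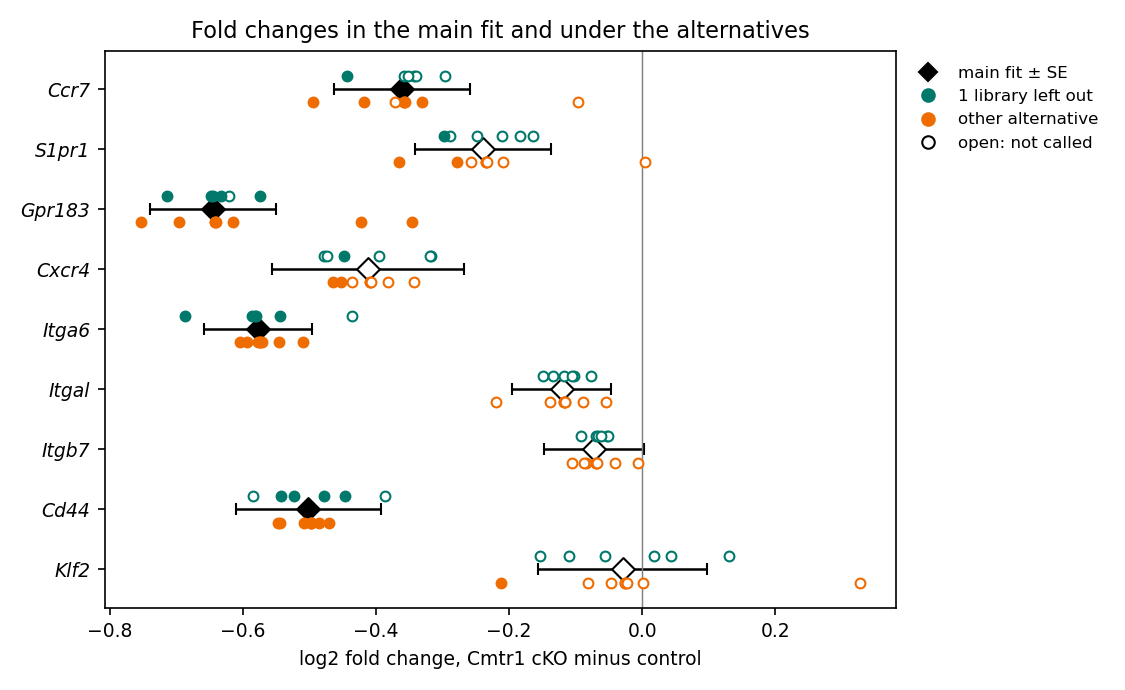
Log2 fold change (horizontal axis, Cmtr1 cKO minus control) of the 9 genes as reported (diamonds, with SE) and under 14 alternatives (circles). Filled symbols were called at an adjusted p under 0.05. Gpr183 and Itga6 were called in 13 of the 14 alternatives, Cd44 in 12, Ccr7 in 7 and Itgal and Itgb7 in 0.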

How the data were processed

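The authors deposited 1 count table per library, with unscaled whole-number read counts for each gene: 1 unstranded column and 2 stranded ones, laid out as STAR writes them. The submitters' processing notes name STAR 2.5.2b, edgeR and the builds mm10 and GRCm38. The gene annotation behind the counts was not given in the sources used here. Of 46983 gene identifiers 46488 (98.9%) matched GENCODE vM21 (GRCm38) without version numbers, which gave symbols, exon lengths and coordinates. Gene identifiers are printed with the version the count tables give. The column of the gene's own strand was used. It held 18.7 to 22.7 times the reads of the opposite one in 5 libraries and 5.57 times in Cmtr1 cKO 3, where Gm42418 and Lars2 alone took 70.02% of the opposite-strand reads. The 4 rows that name no gene held 52.1% to 62.0% of reads and were left out.

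Genes were kept by filterByExpr and scaled by TMM factors in edgeR 4.0.16 (R 4.3.3), and genotype was the only term in its quasi-likelihood test, with Benjamini-Hochberg adjustment over all 12748 genes. Group labels came from the sample titles. The SE is the size of the log2 fold change divided by the square root of F. CPM use the TMM factors, and CPM per kb divide them by the exon length. Alternatives were DESeq2 1.42.0, limma 3.58.1 with quality weights, RLE scaling, no filter, unstranded counts, protein-coding genes only, the covariate, the replicate block and each library left out. The code was tested on simulated data. Nothing in the labels ties each library to a mouse of its own. The p-values therefore rest on the spread among these libraries, which may be technical. The members, lists and tests were chosen with earlier results of these data known. Named were all members, the called genes of each related list with the smallest adjusted p (at most 5 each way), integrin partners, Foxo1, Cmtr1, called markers and the gene closest in profile to each called member.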

Additional observations from a re-analysis of the deposited data

Results flagged for a closer look

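Reads on the strand opposite to Gpr183, which entered a comparison of genes only through the unstranded counts, averaged 37.6 ± 13.99 CPM (SD, n = 4) in Cmtr1 cKO, above the control level of 18.0 ± 2.8 CPM (SD, n = 2). Libraries Cmtr1 cKO 1 to 3 were above both controls and Cmtr1 cKO 4 (19.6 CPM) was not. The difference was not tested.

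Cyth3, of the integrin activation list, stood apart in 1 of the 4 Cmtr1 cKO libraries, at 62.9 CPM in Cmtr1 cKO 1 against 52.6 to 54.2 CPM in the other 3. Among 46 named genes examined for a library that stands apart in this way this was the 1 found, and chance alone flags about 1 in 20. None of the 9 homing and adhesion members had such a library.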

How the results depend on the processing

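With 1 library left out, all genes called numbered 193 to 3880 (1457 as reported), members called 0 to 6 (4) and genes called on the related lists 1 to 64 (25). Limma with quality weights, which gave Cmtr1 cKO 4 a weight of 0.374 and every other library at least 1.12, called 3170 genes, 6 members and 53 list genes, and no filter called 2272 genes. The off-exon covariate gave 666 genes, 3 members and 11 list genes.

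With 1 library left out Ccr7 ran from -0.44 to -0.30, S1pr1 from -0.30 to -0.16, Gpr183 from -0.71 to -0.57, Cxcr4 from -0.48 to -0.32, Itga6 from -0.69 to -0.44, Cd44 from -0.58 to -0.39 and Klf2 from -0.15 to 0.13 (log2). The call of Ccr7 ended on unstranded counts (-0.37) and with the covariate (-0.096). S1pr1 and Cxcr4 became called with limma (-0.28 and -0.45). With the covariate S1pr1 turned to 0.0048, Klf2 to 0.33 and Cmtr1 to -0.65, and on protein-coding genes alone Klf2 turned to 0.00079. Klf2 also turned without control 2, Cmtr1 cKO 1 or Cmtr1 cKO 2 (0.13, 0.017 and 0.044), and Itga4 without control 2 (0.10, against -0.23 without control 1). The cause was not tested. Of the 126 values of members under alternatives 102 kept both direction and side of the threshold.

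The titles number libraries within each group, and the groups share numbers 1 and 2 only. Deviations of same-numbered libraries from their group means correlated at 0.117 and -0.122 over 12748 genes. The deviations of 2 controls from their own mean mirror each other, so these correlations are not separate checks. They cannot settle whether the numbers are pairs, and the fit as reported did not take them as pairs. With the replicate block 4842 genes, 7 members and 83 list genes were called, S1pr1 (-0.36), Cxcr4 (-0.46) and Klf2 (-0.21) among them. In that fit a Cmtr1 cKO library without a same-numbered control adds nothing to the fold change. The block fit therefore rests on the libraries numbered 1 and 2 in each group, and its larger counts are not stronger evidence. It is among the 14 alternatives over which calls of the members were counted. With a single control left, its spread was assumed to be that of the other group. Among the members depth limits Cxcr4 and Cd44 most, with as few as 124 and 274 reads in a library.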
